A study of Mus musculus with 4 samples.

Results

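The 10 genes described here are core parts and outputs of the circadian clock: the activators Clock and Npas2, the repressors Per1, Per2, Per3 and Cry1, the nuclear receptors Nr1d1 and Nr1d2, and the output genes Dbp and Nampt. They were chosen by name, as genes of the loop in which Bmal1 works. Binding was measured by chromatin immunoprecipitation and sequencing (ChIP-seq) with an antibody against Bmal1, in retina of mice at postnatal day 5 (P5) and at postnatal day 3 (P3). Tissue of both ages was collected at zeitgeber time 4, which is 4 h after lights on. Each age had 2 libraries (replicates 2 and 3 at P5, replicates 4 and 5 at P3), and 1 library of input DNA was made. The labels give neither genotype nor strain, and they do not say how many animals went into a library or whether the libraries of an age came from separate animals. The Methods describe isolated retina and mention no sorting of cells for ChIP, so cells other than neurons can contribute. The paper describes the retina at P3 as mainly neuronal, though not free of vessels. A list of peaks holds no marker by which the tissue could be checked. The authors called peaks, the places where ChIP tags stood above the background, in each library and in the pooled libraries of each age. Both kinds of calls were deposited, narrow peaks with 1 width per list and broad peaks of varying width, so 12 lists were used here. A peak belongs to the gene whose transcription start site (TSS) is nearest in the authors' annotation. In the 12 lists 26 of 94075 peaks were assigned to the 10 genes, 6 of 16134 narrow and 20 of 77941 broad peaks, and they belonged to 6 of the 10 genes. Per1, Per2, Nr1d1 and Dbp had no peak in any list.

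In the mammalian clock Bmal1 pairs with Clock or, in its place, with Npas2, and the pair binds short DNA elements called E-boxes, of which CACGTG is the canonical form. It switches on the Per and Cry genes, whose proteins return to the nucleus and block the pair. It also switches on Nr1d1 and Nr1d2, which encode the receptors REV-ERB alpha and beta that repress Bmal1 itself, and output genes such as Dbp and Nampt. The E-boxes of these genes lie in or near promoters and in early introns, and in mouse liver Bmal1 occupies several of them by day. Clock genes are active in many cell types of the retina.

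RefSeq's promoter table for GRCm38.p6 (mm10), which gives 250 bases before to 50 bases after a start, held 12 promoters of 9 of the genes, all but Per2. CACGTG reads the same on both strands. It was present in a promoter of 2 of these genes, Per1 and Cry1, and in 7.15% of the 32851 promoters of the table. These promoters are shown because they hold the element, in capitals, at the start of a target gene, and no peak of any list overlapped them or another promoter of the 9 genes. The Per1 promoter (chr11:69098699-69098998, plus strand) has its match beginning 166 bases before the start, and the Cry1 promoter (chr10:85185005-85185304, minus strand) 60 bases before it.
Per1 promoter: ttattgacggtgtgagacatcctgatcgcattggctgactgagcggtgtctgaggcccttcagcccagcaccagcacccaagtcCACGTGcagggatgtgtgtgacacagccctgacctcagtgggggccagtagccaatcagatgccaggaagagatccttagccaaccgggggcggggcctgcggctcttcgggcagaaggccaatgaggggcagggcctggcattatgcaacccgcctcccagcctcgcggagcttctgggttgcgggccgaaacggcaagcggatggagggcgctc
Cry1 promoter: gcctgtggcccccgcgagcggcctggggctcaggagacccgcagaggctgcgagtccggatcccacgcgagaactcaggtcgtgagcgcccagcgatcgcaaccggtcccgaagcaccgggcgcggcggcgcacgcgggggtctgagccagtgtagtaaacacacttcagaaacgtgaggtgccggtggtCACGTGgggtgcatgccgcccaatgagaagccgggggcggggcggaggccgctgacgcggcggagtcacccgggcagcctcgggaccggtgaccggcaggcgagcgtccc

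The element was also found in 3 of the 26 peaks of the clock genes, which are shown because they are the places where a call and a CACGTG met. The first is a broad P3 peak upstream of Npas2 (window chr1:39191814-39191873), the second a narrow P3 peak in intron 1 of Npas2 (chr1:39248907-39249051) and the third a broad P3 peak upstream of Nampt (window chr12:32792000-32792059). A further pair of narrow P3 peaks are shown without any capitals, since they hold no match: that of Per3 (chr4:151035296-151035440), nearest to a start among the narrow ones, and that of Nr1d2 (chr14:18156295-18156459), found in the pooled libraries. All 5 are given on the plus strand of mm10.
Npas2 upstream, broad, window of 60 bases: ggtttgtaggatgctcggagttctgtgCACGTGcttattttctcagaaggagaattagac
Npas2 intron 1, narrow: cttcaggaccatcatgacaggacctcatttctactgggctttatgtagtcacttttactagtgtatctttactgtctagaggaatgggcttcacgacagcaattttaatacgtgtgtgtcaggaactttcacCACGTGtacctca
Nampt upstream, broad, window of 60 bases: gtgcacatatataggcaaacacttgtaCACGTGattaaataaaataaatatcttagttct
Per3 intron 5, narrow: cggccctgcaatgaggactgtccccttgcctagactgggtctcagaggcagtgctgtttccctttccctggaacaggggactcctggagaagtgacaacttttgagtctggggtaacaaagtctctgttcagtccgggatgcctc
Nr1d2, narrow, pooled libraries: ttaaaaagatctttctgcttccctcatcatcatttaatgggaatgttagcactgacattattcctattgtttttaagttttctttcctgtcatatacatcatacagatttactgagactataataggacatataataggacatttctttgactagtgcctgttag

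The score of a peak was read as its number of tags per 10 M (M stands for 1e+06), a unit inferred from the values. The tag counts and their intervals below rest on this reading. Narrow scores came in even steps, each taken as 1 tag. If the unit is tags per 10 M, the step corresponds to 62.0 to 68.3 M tags behind a P5 library and 55.2 to 65.7 M behind a P3 library. The sequencing depth in the Reporting Summary of the study is lower, so these totals are inferred values and the difference is not settled here. The labels name no batch. The P3 replicate 4 library stood apart, with 9543 narrow peaks against 200 to 1336 in the other 3 libraries and with a lowest score of 12 tags against 17 tags in each of them. In broad lists it had 25380 peaks against 7435 to 10782. What reached a list therefore differed between libraries, and a place below these limits is not listed whatever its signal. A difference in binding and a difference in calling cannot be told apart from the lists.

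Narrow peaks of the clock genes came from the P3 replicate 4 library and the pooled P3 libraries. At P5 none of the 10 genes had a narrow peak in replicate 2, in replicate 3 or in the pooled libraries, where 0.771%, 4.50% and 1.72% of the 21000 protein-coding genes of RefSeq had one. At P3 the narrow list of replicate 4 held 5 of the 10 genes, Clock, Npas2, Per3, Nr1d2 and Nampt, against 21.1% of all genes. Replicate 5 held none, against 3.20% of all genes, and the pooled P3 list held Nr1d2 only, against 10.2%. In the broad lists of P5, replicate 2 held Npas2 and Nampt (13.8% of all genes), replicate 3 held Clock (17.4%) and the pooled libraries held Nampt (9.68%). In those of P3, replicate 4 held Clock, Cry1, Nr1d2 and Nampt (31.6% of all genes), replicate 5 held Clock and Cry1 (17.2%), and the pooled libraries held Clock, Npas2, Cry1 and Nampt (24.2%).

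**Figure D1:**
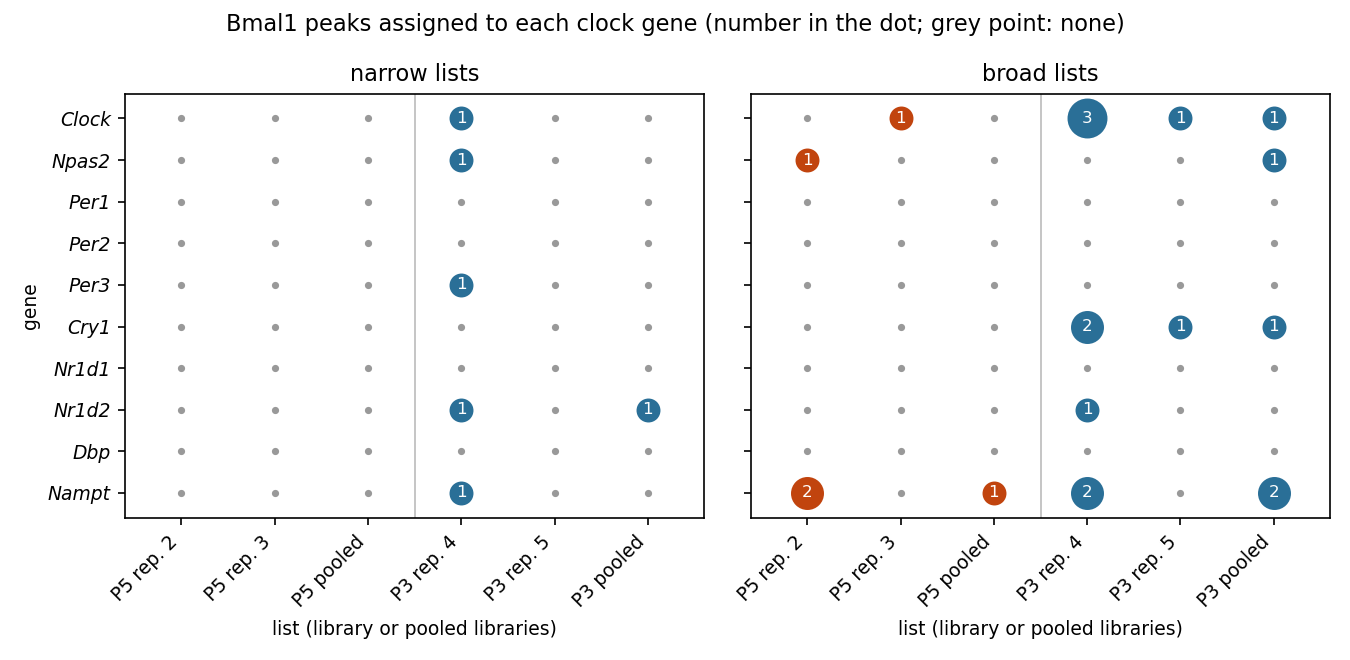
Number of Bmal1 peaks assigned to each of the 10 clock genes (rows) in the 6 narrow and the 6 broad lists (columns, P5 left of P3 in orange and blue), with the number written in each dot and a grey point for none. Narrow peaks stand only in the columns of P3 replicate 4 (5 genes) and pooled P3 (1 gene), and the rows of Per1, Per2, Nr1d1 and Dbp are empty.

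Over all lists 6 of the 10 genes had a peak, and 51.7% of all protein-coding genes did. The shares were 5 of 10 against 28.0% over the 6 narrow lists and 5 of 10 against 45.8% over the 6 broad lists. By age, 3 of the 10 genes (Clock, Npas2 and Nampt) had a peak in any P5 list, against 26.6% of all genes, and 6 of 10 in any P3 list, against 46.3%. Without the lists of P3 replicate 4 and of pooled P3, which contains that library, 7 peaks of 4 genes were left (Clock, Npas2, Cry1 and Nampt), against 33.2% of all genes. The shares of the clock genes in broad lists were thus near those of all genes, and the larger share in narrow lists rests on the P3 replicate 4 library.

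Clock, the usual partner of Bmal1, had 7 peaks, all within the gene. At P5 the replicate 3 library had a broad peak in intron 6 of 22, with a score of 5.71 or 39 tags (exact 95% Poisson interval 27.7 to 53.3, counting error only, as for all such intervals), and replicate 2 and the pooled libraries had none. At P3 the replicate 4 library had a narrow peak of score 3.63 in intron 2 (20 tags) and broad peaks of score 9.25 in intron 9, 5.80 in intron 8 and 5.08 in intron 2. The broad peak of 9.25 (51 tags, interval 38.0 to 67.1) had the highest score of the 26, narrow, broad and pooled together, and ranked 575th of the 25380 of its list. It was 740 bp wide, against a median of 500 bp in its list, and a wider region can hold more tags. The replicate 5 library had a broad peak of 5.02 in intron 2, 4.22 kb downstream of the TSS (33 tags, interval 22.7 to 46.3). It overlapped the pooled P3 peak of 4.14 (4.09 kb downstream, 50 tags) over 380 bases, the only place in Clock that recurred, though in a list that contains the same library. The other Clock peaks lay 17 to 58.6 kb downstream of the TSS, each in a place of its own.

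Npas2, which can take the place of Clock, had 3 peaks at 3 places. At P5 replicate 2 had a broad peak in intron 1 of 20, 25.9 kb downstream of the TSS, with a score of 4.68 (29 tags). At P3 replicate 4 had the narrow peak with CACGTG printed above, 54.7 kb downstream in the same intron, with a score of 3.81 (21 tags, interval 13 to 32.1). The pooled P3 libraries had a broad peak of 5.21 upstream of the gene, 2.53 kb from the TSS (chr1:39191428-39192063). It was made of 63 tags (interval 48.4 to 80.6), ranked 2380th of 19646, and was the peak of these genes nearest to a TSS. No peak of replicate 4 or replicate 5 overlapped it, so it was called on the pooled tags alone.

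Among the repressors, Per3 and Cry1 had peaks and Per1 and Per2 had none. Per proteins bind Cry proteins, and it is this complex that stops the Bmal1 pair. The single Per3 peak was narrow, in intron 5 of 20, 9.30 kb downstream of the TSS, and came from P3 replicate 4 with a score of 3.81 (21 tags, interval 13 to 32.1), a score above 53.4% of its list. Neither P5 library, nor P3 replicate 5, nor a pooled list had a peak for Per3. Cry1 had no peak in the P5 lists and 4 broad ones at P3, all intergenic and upstream of the gene. Replicate 4 had scores of 6.34 (24.2 kb upstream, 35 tags) and 5.26 (54.7 kb, 29 tags), replicate 5 had 5.02 (98.2 kb, 33 tags) and the pooled libraries 3.89 (98.5 kb, 47 tags). The last of these overlapped the peak of replicate 5 over 260 bases, and no place was called in both libraries.

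Of the nuclear receptors, which close a second loop by repressing Bmal1, Nr1d2 had 3 peaks and Nr1d1 none. Nr1d2 had no peak at P5. At P3 replicate 4 had a narrow peak of 5.26 (chr14:18164896-18165040, 29 tags, interval 19.4 to 41.6), which ranked 124th of 9543 and lay 74.1 kb downstream of the TSS, beyond the end of the gene. It lies in an L1 repeat by the authors' annotation, and 84.1% of its bases are marked as repeats in the reference. Replicate 4 also had a broad peak of 6.89 (38 tags) in exon 7 of 8, the 1 exonic peak of the 26, 31.0 kb from the TSS. The pooled P3 libraries had the narrow peak printed above, with a score of 2.65 (32 tags, interval 21.9 to 45.2), 82.7 kb downstream of the TSS. This is the peak for which Nr1d2 counts in the pooled narrow list, and neither library had a narrow or broad peak that overlapped it.

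Of the outputs, Nampt, the enzyme that recycles nicotinamide toward NAD+, had 8 peaks, the most of the 10 genes, and Dbp, a PAR bZIP transcription factor, had none. All 8 were intergenic and upstream of Nampt. At P5 replicate 2 had broad peaks of 4.84 (36.1 kb, 30 tags) and 4.68 (206 kb, 29 tags), replicate 3 had none, and the pooled libraries had 3.92 (206 kb, 51 tags). At P3 replicate 4 had a narrow peak of 3.63 (19.2 kb, 20 tags) and broad peaks of 7.07 (28.1 kb, 39 tags) and 7.43 (214 kb, 41 tags). Replicate 5 had none, and the pooled P3 libraries had broad peaks of 4.80 (214 kb, 58 tags) and 3.89 (207 kb, 47 tags). The distal peaks of P5, 206 kb upstream, are the same place, called in replicate 2 and in the pool that contains it. They overlapped none of those of P3, 207 to 214 kb upstream. Such overlap was rare everywhere: 2691 of all 65535 library peaks overlapped a peak of the other age. In the curated RefSeq annotation of GRCm38.p6 another gene, Gm40376, starts between these distal peaks and Nampt. Of the 8 peaks 5 were nearest to it, which left 3 for Nampt.

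No peak of the 10 genes lay within 1 kb of a TSS, where 2.67% of all genes had one. Within 10 kb, 3 of the 10 genes had a peak, against 25.4% of all genes: Npas2 at 2.53 kb, Clock at 4.09 and 4.22 kb and Per3 at 9.30 kb. All 4 of these peaks came from P3. The P3 lists together also covered more of all genes, 46.3% at any distance against 26.6% for the P5 lists. The 7 genes with no peak within 10 kb in any list were Per1, Per2, Cry1, Nr1d1, Nr1d2, Dbp and Nampt, several of them textbook targets of Bmal1 at their promoters. Without the lists of P3 replicate 4 and pooled P3, Clock alone remained, against 11.9% of all genes. By peak, 1 of 6 narrow peaks and 3 of 20 broad ones lay within 10 kb, against 13.9% of all narrow and 10.4% of all broad peaks. Of these 3 broad peaks 2 are the same place of Clock, called in replicate 5 and again in the pool that contains it. In the lists of the 4 libraries alone, in which no place of these genes was counted more than 1 time, 1 of 5 narrow peaks (exact Clopper-Pearson 95% interval 0.505 to 71.6%) and 1 of 14 broad peaks (7.14%, interval 0.181 to 33.9%) lay within 10 kb, against 14% and 10.6% of all peaks of those lists. The median distance was 36.9 kb for the narrow and 46.5 kb for the broad peaks of the clock genes, against 70.9 and 115 kb over all peaks. In the 4 libraries alone the medians were 19.2 and 37.6 kb, against 70.0 and 111 kb. Since a peak goes to the nearest start, its distance is bounded by how close the neighbouring starts lie. These medians therefore do not show that Bmal1 lay closer to clock genes.

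**Figure D2:**
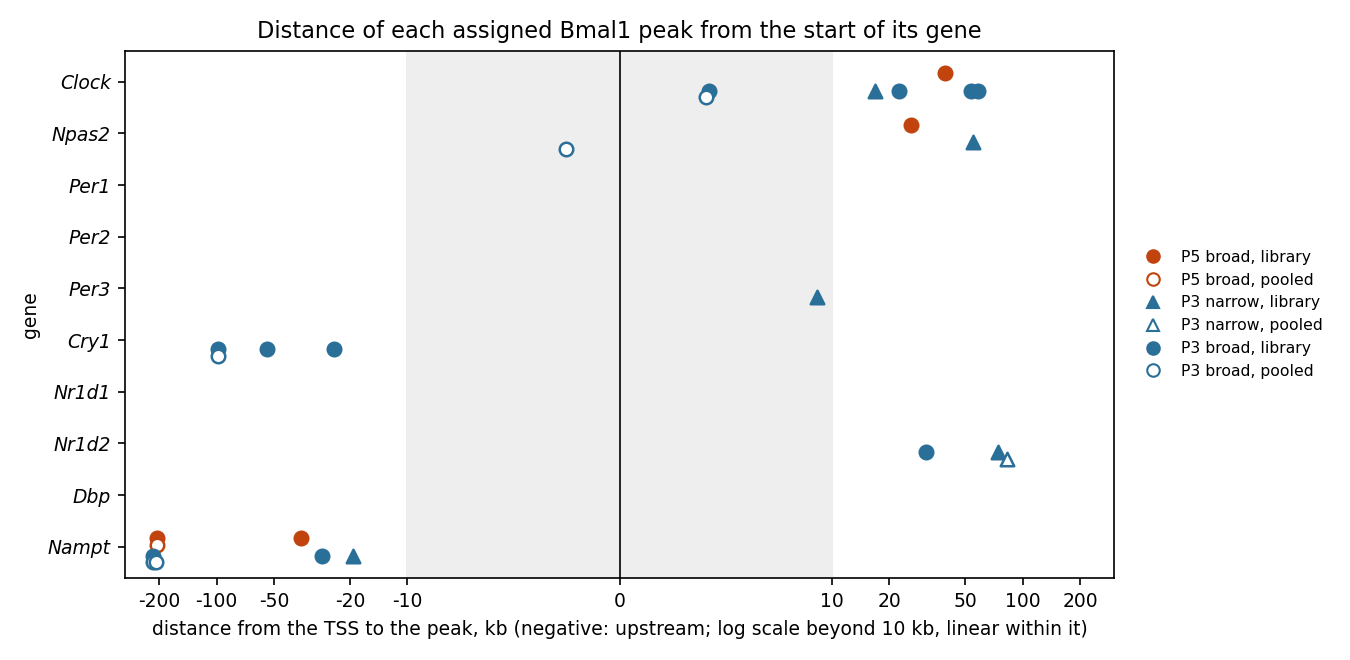
Signed distance in kb from the TSS of its gene to each of the 26 peaks (log scale beyond 10 kb, linear within it), with P5 in orange drawn above P3 in blue, triangles for narrow and circles for broad peaks, and open symbols for pooled libraries. The grey band marks 10 kb on either side, which holds 4 peaks of Clock, Npas2 and Per3, and Cry1 and Nampt have peaks on the upstream side only.

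For the 4 genes with no peak, the nearest called place of any list was read whatever gene it was assigned to. That of Per1 was a narrow peak of P5 replicate 3 with a score of 3.37, in intron 12 of Alox12b, 41.6 kb downstream of a Per1 start. That of Per2 was a broad peak of P3 replicate 4 with a score of 6.53, 39.3 kb upstream in intron 2 of Traf3ip1. That of Nr1d1 was a narrow peak of P3 replicate 4 with a score of 3.26 at the promoter of Casc3, 34.1 kb upstream. That of Dbp was a broad peak of P5 replicate 3 with a score of 4.54, 110 kb upstream. The closest of the 4 was thus 34.1 kb from a start.

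CACGTG occurred 40 times within 10 kb of the starts of the 9 genes with a promoter entry, from 1 time at Per3 to 8 times at Nr1d1, and a peak covered 1 of the 40, against 325 of 57561 (0.565%) within 10 kb of the starts of all protein-coding genes. The 1 covered was the upstream element of Npas2, in the pooled P3 broad peak. Per1, with 6 elements, had no called place closer than 40.7 kb to any of them, and Dbp, also with 6, none closer than 113 kb. A called place came within 5.10 kb of the element of Per3, 7.75 kb of those of Clock, 10.4 kb of those of Nampt and 15.5 kb of those of Cry1. Nr1d1 and Nr1d2 had none closer than 25.8 and 30.1 kb.

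All 6 narrow peaks and 14 of the 20 broad peaks were at or above the median score of their list, some of them exactly at it. The best placed were the narrow Nr1d2 peak of P3 replicate 4, above 97.7% of its list, and the broad Clock peak of 9.25, above 97.4%. In the P5 broad lists the 3 peaks of replicate 2 scored 4.68, 4.68 and 4.84 against a median of 4.68, the peak of replicate 3 scored 5.71 against 4.69, and the pooled peak 3.92 against 4.07. In P3 replicate 4 the narrow peaks scored 3.63 to 5.26 against a median of 3.63 and the broad ones 5.08 to 9.25 against 5.62. In P3 replicate 5 both broad peaks scored 5.02 against 4.87, and in the pooled P3 broad list scores of 3.89 to 5.21 stood against a median of 4.22. Scores of different lists are cut at different limits, so they were not compared between the ages.

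**Figure D3:**
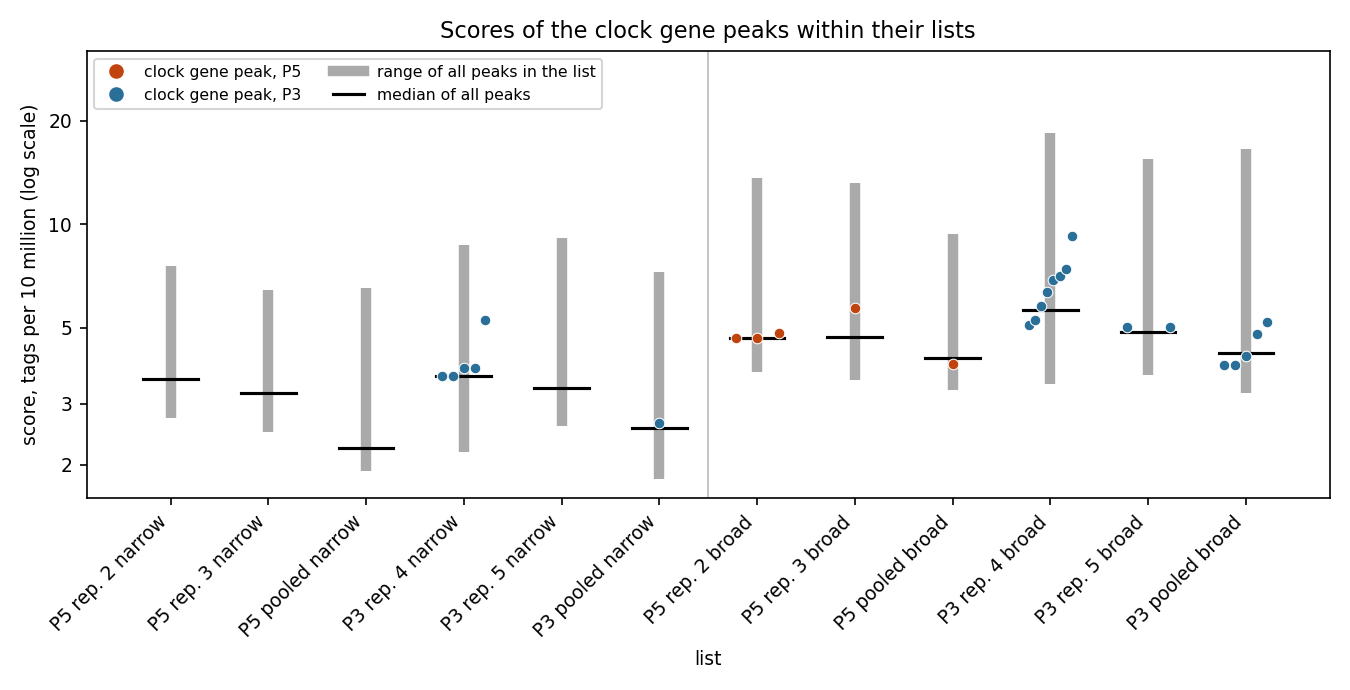
Scores of the clock gene peaks (dots, P5 orange and P3 blue) in tags per 10 M on a log axis, for each of the 12 lists, over the range of all peaks of the list (grey bar) and their median (black line). The highest dot is the Clock peak of 9.25 in the broad list of P3 replicate 4, in a range that ends at 18.5.

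The 26 peaks lay at 22 different places, and none of these was called in 2 libraries, narrow or broad, of the same age or of different ages. Over the whole lists 2.80% of 71422 places were called in 2 or more libraries. By peak, 0 of the 19 peaks of single libraries overlapped a peak of another library, against 6.34% of all 65535, so a place called in more than 1 library was rare everywhere. The 4 overlaps were between a pooled list and a library in that pool: Nampt with P5 replicate 2 (462 bases) and, at P3, Nampt with replicate 4 (429 bases), Cry1 with replicate 5 (260 bases) and Clock with replicate 5 (380 bases). Of the 19 peaks called in single libraries, 4 (21.1%) overlapped a pooled peak of the same age and kind, against 24.2% of all library peaks. Of the 7 pooled peaks, 3 overlapped no library peak: those of Npas2, of Nr1d2 and the Nampt peak 207 kb upstream.

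By annotation 3 of the 6 narrow peaks were intergenic and 3 intronic, and of the broad ones 12 were intergenic, 7 intronic and 1 exonic, with none in a promoter. Their GC content was 31.0 to 55.9% with a median of 41.8% for narrow and 29.1 to 43.7% with a median of 34.6% for broad peaks, beside means of 37.8 and 34.2% over all peaks. The authors' annotation puts 4 of the 6 narrow and 7 of the 20 broad peaks in a repeat, against 33.5% of all narrow and 29.6% of all broad peaks. The share of repeat-masked bases averaged 49.4% in the narrow and 21.0% in the broad peaks of the clock genes, against 24.2% and 25.0% over all peaks. The narrow peaks of Clock, Nr1d2 (replicate 4) and Nampt were 100%, 84.1% and 85.5% repeat-masked and lie in L1 elements, repeats with many copies in the genome, and that of Npas2 was 0% masked. The part of such copies in the calls was not tested. The Per3 peak, at 55.9% GC, is also annotated to an L1 element, although 0% of it is masked in the reference.

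CACGTG was in 1 of the 6 narrow peaks (Npas2) and in 2 of the 20 broad peaks (Npas2 and Nampt), against 1.16% of all narrow and 2.87% of all broad peaks. None of the 3 came from P5, whose broad lists held only 3, 1 and 1 peaks of these genes. Of all peaks in those P5 lists, 2.36 to 3.30% held CACGTG. With C or T allowed at the third base and G or T at the fourth, read on both strands and with CACGTG included, 2 narrow and 14 broad peaks held a match, against 31.2% and 69.5% of all peaks. In the promoter table this wider form was found in 4 of the 9 genes, Per1 (in each of its promoters), Cry1, Nr1d1 and Dbp. It was in 40.4% of all promoters, a share by promoter and not by gene. A match is a stretch of letters and does not show that Bmal1 was bound.

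The number of peaks was also read against the sequence around each gene, since a peak goes to the nearest start. The stretch nearest to its own curated RefSeq starts was 7.62 kb for Dbp, 16.6 kb for Per1, 26.9 kb for Nr1d1, 30.4 kb for Per3 and 40.3 kb for Per2, all below the median of 42.5 kb over protein-coding genes. It was 49.7 kb for Nampt, 61.1 kb for Clock, 90.4 kb for Npas2, 129 kb for Cry1 and 145 kb for Nr1d2. The 4 genes with no peak were thus among the 5 with the least sequence, and Per3, the other of the 5, had 1. The 10 genes together had 597 kb. With peaks assigned by these starts, the broad lists of the 4 libraries held 12 peaks in it, or 20.1 per Mb (exact Poisson interval 10.4 to 35.1), against 19.6 per Mb over the genome. The narrow lists of the 4 libraries held 5, or 8.37 per Mb (interval 2.72 to 19.5), against 4.41, and all 5 came from P3 replicate 4, whose own density was 3.50 per Mb. In both kinds of list the density over the genome was within the interval, which holds counting error only and not the spread between libraries. Of the 12 broad peaks 7 came from P3 replicate 4. The intervals therefore test no difference between these genes and the genome.

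**Figure D4:**
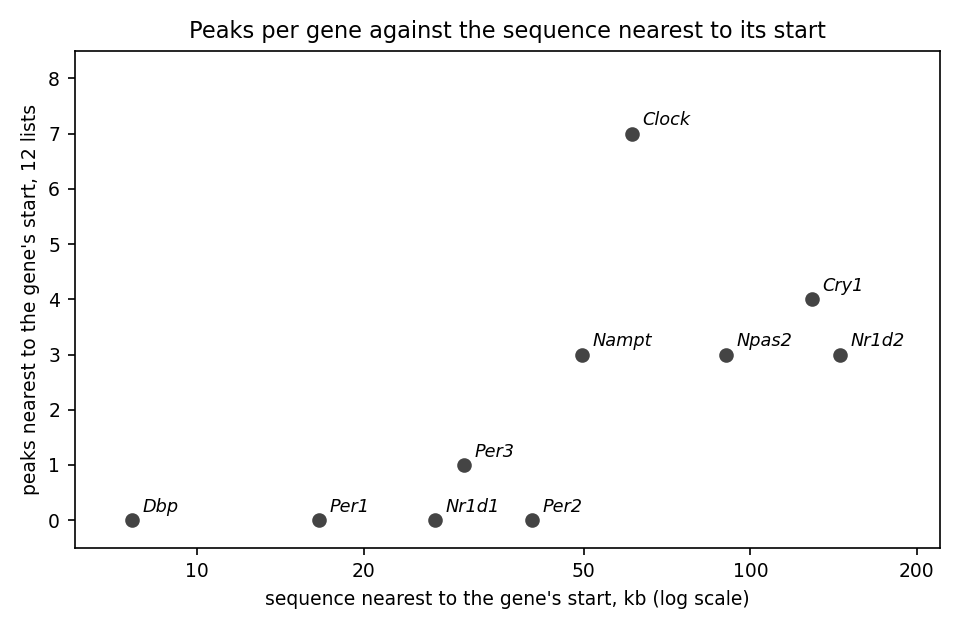
Number of peaks in the 12 lists nearest to the curated RefSeq starts of each gene (vertical axis) against the kb of sequence nearest to those starts (horizontal axis, log scale). Dbp, Per1, Nr1d1 and Per2, with 7.62 to 40.3 kb, have 0 peaks, and Clock, with 61.1 kb, has the most, 7.

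The difference between the ages was taken over libraries. The number of the 10 genes with a narrow peak was 0 and 0 in the P5 libraries and 5 and 0 in the P3 libraries, a difference of -2.50 genes (P5 minus P3, two-sided exact permutation p = 1). The smallest p that 2 libraries against 2 can give is 0.333, so no difference could pass a threshold of 0.05. The groups overlapped, since P3 replicate 5 was at 0 like both P5 libraries. In the broad lists the numbers were 2 and 1 in the P5 libraries and 4 and 2 in the P3 libraries, a difference of -1.50 (exact permutation p = 0.667). At neither kind of list was the difference larger than the spread within P3.

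A further 21 clock genes were read in the same lists, among them Bmal1's own gene Arntl, Cry2 and factors that tune the loop. Of these 9 had a peak in any list and 3 had one within 10 kb of the TSS, against the 51.7% and 25.4% of all genes given above, and none had one within 1 kb. Arntl2, a paralog of Arntl, had a broad peak 9.78 kb upstream in P5 replicate 3 (score 4.83, 33 tags) and another 13.3 kb upstream in P3 replicate 4 (5.44, 30 tags). Rorb, a nuclear receptor of the retina, had broad peaks 2.44 kb upstream (5.26, 29 tags) and 5.84 kb downstream (8.88, 49 tags) in P3 replicate 4. The pooled P3 libraries, which contain replicate 4, had them 2.47 kb upstream (4.14, 50 tags) and 5.95 kb downstream (7.78, 94 tags). Neither P3 replicate 5 nor any P5 list had a Rorb peak within 10 kb. Just beyond that limit, broad peaks of P5 replicate 3 (10.5 kb downstream, 4.39, 30 tags) and of P3 replicate 4 (10.6 kb downstream, 4.89, 27 tags) overlapped, so this place of Rorb was called at both ages. The pooled P3 list did not hold this place. Farther upstream of Rorb, broad peaks of P5 replicate 3 at 365, 542 and 572 kb overlapped pooled P3 broad peaks. These overlaps were seen among the 102 peaks of the 21 genes, most of them assigned to Rorb. Over all genes, 2691 of 65535 library peaks overlapped a peak of the other age. Bhlhe40, a repressor that competes for E-boxes, had broad peaks 9.40 kb upstream in P3 replicate 4 (6.34, 35 tags) and 11 kb upstream in P3 replicate 5 (4.72, 31 tags). Arntl, Cry2 and 10 more of the 21 had no peak in any list.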

How the data were processed

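The authors trimmed reads with Trim Galore, aligned them with bowtie2 (Bowtie in the labels) to GRCm38 (mm10) and called peaks. The labels and the Reporting Summary name MACS2, while a HOMER annotation command heads the deposited lists. The labels also list hg38, but the coordinates are those of mm10. Neither versions nor calling thresholds are given in the sources used. The antibody has different catalogue numbers in the Methods and in the labels. The deposited score was used as given and read as tags per 10 M. Its unit was read from the values: narrow scores were whole multiples of a step within 0.0052. The deposited positions and distances to the TSS are in bp. Lists of all libraries pooled, gene names and pathways were not used.

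Peaks were taken as called and counted by the authors' gene names, of which 10865 of 12723 matched a protein-coding RefSeq gene. The share of all protein-coding genes with a peak was set beside each count. Sequence came from RefSeq GRCm38.p6. Libraries were compared with a two-sided exact permutation test. All 10 genes are named. Of 21 other clock genes the rule names those with a peak within 10 kb, and Arntl and Cry2 were named besides after their values were seen. The others are counted, and not reported here by name. The genes and lists were chosen with earlier results of these data known. The code was tested on simulated data. Python 3.11.15, numpy 2.4.6, pandas 2.3.3, scipy 1.17.1, pysam 0.24.0 and matplotlib 3.10.9 were used. Other distances, broad lists, the upper 50% of the scores, curated starts, other motifs and overlaps, and leaving out each library were the alternatives.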

Additional observations from a re-analysis of the deposited data

How the results depend on the processing

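No paired analysis was possible because the libraries of the ages share no replicate number. Pooled P5 held 0 of the genes in the narrow list, 1 with the broad list and 0 with either library alone. Pooled P3 held 1, and 4 with the broad list and 0 within 50 kb of the TSS. The list of a single library in its place held 5 (P3 replicate 4) or 0 (P3 replicate 5). The difference of -2.50 genes between the ages ranged from -5.00 to 0 with a library left out, with 0 without P3 replicate 4, and was -1.50 with the broad lists and with peaks within 50 kb of the TSS. The 3 genes with a peak within 10 kb became 0 within 1 kb, 6 within 50 kb and 1 with narrow lists only. They were 2 to 3 with the lists of a library left out and the pooled lists kept. Without P3 replicate 4 and pooled P3, chosen after seeing the data, 1 was left, and peaks with CACGTG fell to 0 of 7, against 3 of 26. Those peaks numbered 16 with the wider form, 22 with CANNTG and 1 with narrow lists only. The remaining alternatives for these counts stayed within 1.5 times of the values above, the 6 genes with any peak were 5 or 4 with those lists left out, and the count of places called in 2 libraries was 0 under each alternative. The depth inferred from the score steps was 55.2 to 68.3 M tags per library, and narrow peaks under 12 to 17 tags were not listed, so a missing peak does not show that Bmal1 was not bound.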
